A study of Mus musculus with 12 samples.

Results

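Transcripts of 8 genes that mark dendritic cells (DCs) were followed in 12 libraries of cultured mouse MDSCs. The genes were Mgl2, Clec10a, Cd209a, Zbtb46, Batf3, Xcr1, Siglech, and Tcf4, taken by symbol from a count table of 35303 genes. All 8 had at least 2 counts over the 12 libraries and were among the 17676 genes tested.

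MDSCs are immature myeloid cells that restrain T cell responses. Those used here were wild type and, per the study's methods, were grown from bone marrow of female C57BL/6 mice, aged 6 to 10 weeks, with IL-6 and GM-CSF for 3 days. Nonadherent cells were collected and enriched with a kit for CD11b+Gr1+ cells. The 4 MDSC libraries came from cells without particles. The 4 MDSC-NP-Blk libraries came from cells carrying blank PLGA nanoparticles (NPs), and the 4 CITED libraries from cells carrying NPs loaded with rapamycin, an inhibitor of mTOR. All 3 groups then spent 24 hours in medium with IL-6 (40 ng/ml), after which poly(A) RNA was sequenced. The NPs were attached through azido groups that a modified sugar places on the cells, and whether the MDSC group received this sugar is not stated, so the sugar and the particles cannot be told apart in comparisons with MDSC. The labels name the CNS as the tissue, whereas the methods describe cells cultured from bone marrow. The labels call the replicates biological, but which cultures or mice they came from is not stated, and p-values measure the spread between these libraries.

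DCs take up antigen and present it to T cells. Conventional DCs of type 1 (cDC1) depend on BATF3 and carry XCR1, conventional DCs of type 2 (cDC2) often carry lectins such as CD301b and CD209a, and plasmacytoid DCs (pDCs) depend on TCF4 and carry Siglec-H. Bone marrow cultured with GM-CSF is a common source of DC-like cells as well as of MDSCs, and several of these genes are also expressed by macrophages, monocytes, or B cells.

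Mgl2, which encodes the galactose-binding lectin CD301b, and Clec10a, which encodes its relative CD301a, lie next to each other and are similar in sequence. Mgl2 lies at chr11:70020954-70028376 and Clec10a at chr11:70047023-70061660 of GRCm39, both on the plus strand. Their coding sequences, of 999 and 915 bases, were identical at 840 of 913 aligned bases (92%), and the longest identical run had 183 bases. Of the 31-base words of the Mgl2 transcript, 25.7% also occurred in other genes, most of them in Clec10a, and for Clec10a this share was 14.8%. The sequences below show where reads from the 2 genes can and cannot be told apart. The first stretch is the same in both genes, at bases 578 to 697 of the Mgl2 coding sequence and 530 to 649 of that of Clec10a.
Mgl2 and Clec10a, shared: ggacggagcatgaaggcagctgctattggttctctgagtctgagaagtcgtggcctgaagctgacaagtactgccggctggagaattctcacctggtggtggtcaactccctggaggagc
The other stretch, bases 838 to 957 of Mgl2 and 790 to 909 of Clec10a, is the 120-base window with the most differences. Its 35 differing bases are in capitals.
Mgl2, distinct: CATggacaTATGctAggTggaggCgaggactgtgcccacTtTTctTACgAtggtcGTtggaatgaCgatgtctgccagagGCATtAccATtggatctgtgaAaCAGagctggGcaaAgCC
Clec10a, distinct: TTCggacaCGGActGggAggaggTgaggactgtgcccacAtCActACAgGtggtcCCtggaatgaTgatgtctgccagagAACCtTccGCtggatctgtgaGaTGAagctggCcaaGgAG

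Library totals ranged from 20604809 to 37855478 counts. Itgam and Ly6c2, which encode CD11b and part of Gr1, had mean normalized counts of 51960 and 25700 in MDSC, and Ly6g had 3934. Of 4 genes of the CD11b and Gr1 label, 2 were higher and 2 lower in CITED than in MDSC by the adjusted p. The MDSC-NP-Blk libraries fell into pairs: the chi-square per degree of freedom was 5.69 between replicates 1 and 4 and 5.91 between replicates 2 and 3, but 15.7 to 21.8 in the other 4 pairs, against 4.72 to 9.60 within the other groups. The results of the 8 genes that use this group were therefore repeated without each pair, and those of the other genes were not. Transcript length also moved with the groups. The Spearman correlation of relative expression with length, over 10543 genes, was 0.22 to 0.35 in the MDSC libraries, -0.42 to 0.09 for MDSC-NP-Blk, while CITED ranged from -0.34 to -0.19. Fold changes with a correction for length were examined for the 8 genes only, and those of the other named genes are uncorrected. The median log2 fold change of all genes in CITED against MDSC was -0.05 with library factors and dropped by 0.27 with library totals alone, so that differences between 0 and that shift, such as the rise of Id2 in CITED, depend on the factors. The share of called genes that were lower was 67.1% with factors and 87.4% without. In MDSC-NP-Blk against MDSC the medians were -0.29 without factors and -0.03 with them, and these shares were 60.3% with and 87.9% without.

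Per kilobase of transcript, Mgl2 was the most abundant of the 8 genes in every group. In MDSC its level was 80.8 ± 3.67 CPM per kilobase (SD, n = 4), followed by Clec10a at 9.73 ± 0.933, Batf3 at 3.50 ± 0.515, and Tcf4 at 2.37 ± 0.227. Cd209a (0.833 ± 0.200), Zbtb46 (0.530 ± 0.147), Siglech (0.118 ± 0.0664), and Xcr1 (0.0718 ± 0.0294) lay below the others in CPM per kilobase. Only the ranges of the neighbours Siglech and Xcr1 overlapped in MDSC. The first 6 genes kept this order in MDSC-NP-Blk and CITED, where Mgl2 stood at 34.2 ± 2.95 and 25.1 ± 0.785 CPM per kilobase. The markers of cDC1 and pDC that define those cells at the surface, Xcr1 and Siglech, were thus near the limit of detection, whereas the lectin Mgl2 was abundant.

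**Figure D1:**
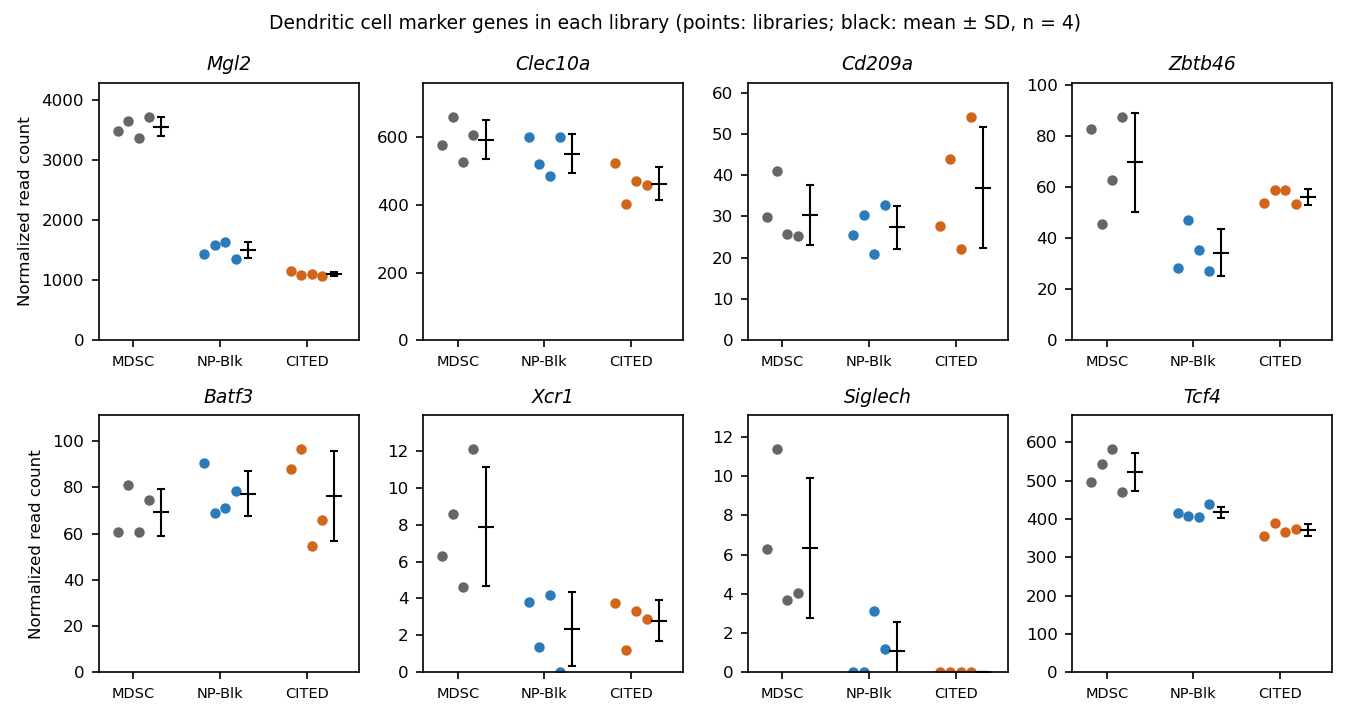
Normalized read counts of the 8 genes in each library, by group (NP-Blk is MDSC-NP-Blk), with each group's mean and SD (n = 4). Mgl2 was at 3370 to 3730 in MDSC and at 1640 or less in all 8 libraries with particles, and Siglech was at 0 in all 4 CITED libraries.

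The counts below are scaled to a common library size. In the test, by edgeR's quasi-likelihood method with adjustment over all genes, a gene was called when its adjusted p was under 0.05 and its log2 fold change at least 1 in size.

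Mgl2 fell most clearly. Its normalized counts in MDSC replicates 1 to 4 were 3490, 3650, 3370, and 3730. They were 1440, 1580, 1640, and 1360 in MDSC-NP-Blk and 1150, 1090, 1110, and 1070 in CITED. No 2 groups overlapped, and the 3 levels were stepped, with the lowest in CITED. Against MDSC, Mgl2 was 3.22-fold lower in CITED (log2 fold change -1.69, SE 0.0626, adjusted p = 1.9e-21) and 2.36-fold lower in MDSC-NP-Blk (-1.24, SE 0.0611, adjusted p = 1.1e-17). CITED was also below MDSC-NP-Blk, by 1.36-fold (-0.45, SE 0.0629, adjusted p = 9.2e-07), which is under the fold threshold for a call. The direction and significance of all 3 differences held in every alternative tried, with log2 fold changes of -1.96 to -1.40, -1.5 to -1.01, and -0.54 to -0.34. Of these ends, -1.40 and -1.01 came from the counts of Mgl2 and Clec10a added together, not from Mgl2 alone.

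Clec10a moved less than its neighbour. Its normalized counts were 579, 662, 526, and 608 in MDSC and 602, 521, 487, and 600 in MDSC-NP-Blk, with 524, 402, 471, and 458 in CITED. The CITED libraries lay just below those of MDSC, by 2 normalized counts at the nearest, and MDSC-NP-Blk overlapped with both. Clec10a was 1.28-fold lower in CITED than in MDSC (-0.36, SE 0.0941, adjusted p = 0.0019), and MDSC-NP-Blk did not differ from MDSC beyond the spread (-0.11, 95% confidence interval -0.30 to 0.08, adjusted p = 0.39). With library totals alone the latter difference was -0.37 (adjusted p = 0.001). CITED against MDSC-NP-Blk gave -0.25 (interval -0.44 to -0.06, adjusted p = 0.057), and the adjusted p was 0.021 without MDSC-NP-Blk replicate 3, 0.024 without CITED replicate 1, and 0.0074 without MDSC-NP-Blk replicates 2 and 3. It was also under 0.05 with a correction for length (0.018), with library totals alone (0.04), and with no filter on low counts (0.049), and it passed in 9 of 25 alternatives in all, the sum with Mgl2 among them. Without MDSC-NP-Blk replicates 1 and 4 it was 0.46.

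Because reads from the shared stretches can be divided between these genes in different ways, their sum was also examined. Mgl2 made up 84.6 to 86.5% of the summed normalized counts in MDSC and 68.7 to 73.1% in CITED. In MDSC-NP-Blk the share was 70.5 and 69.4% in replicates 1 and 4 but 75.2 and 77.2% in replicates 2 and 3, the same pairs as above. The sum itself fell by 1.4 on the log2 scale in CITED against MDSC (SE 0.0565, adjusted p = 1.4e-20) and by 1.01 in MDSC-NP-Blk against MDSC (SE 0.0555, adjusted p = 1.8e-16). The lower total therefore does not depend on how reads were divided between the neighbours, whereas the separate Clec10a value can. The addition of the counts was chosen after the data were seen.

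**Figure D2:**
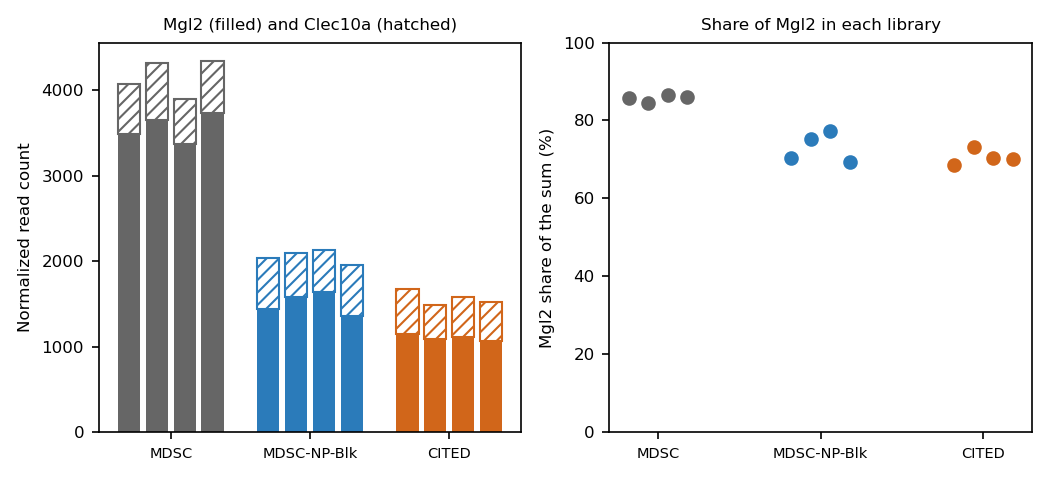
Left, normalized read counts of Mgl2 (filled) and Clec10a (hatched) stacked for each of the 12 libraries, ordered by replicate number within a group. Right, the share of Mgl2 in that sum, which was 84.6 to 86.5% in MDSC and 68.7 to 77.2% in the 8 libraries with particles.

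Cd209a, a mouse relative of the human lectin DC-SIGN, lies at chr8:3793397-3798984. Its normalized counts were 29.9, 40.9, 25.8, and 25.2 in MDSC and 25.5, 30.3, 20.8, and 32.7 in MDSC-NP-Blk, with 27.6, 44.0, 22.2, and 54.2 in CITED. All 3 groups overlapped, and CITED replicates 2 and 4 were the highest libraries of all. No difference passed the test: CITED against MDSC gave 0.29 (interval -0.42 to 0.99, adjusted p = 0.53) and MDSC-NP-Blk against MDSC gave -0.15 (interval -0.86 to 0.56, adjusted p = 0.78). Intervals of this width do not show that the groups were alike. Of the 8 relatives of these lectins that were listed, Cd209f, Cd209g, and Asgr1 were at 0 in all libraries, 5 were tested, and 1 passed. That gene was Asgr2, a subunit of the asialoglycoprotein receptor, which fell from 247.9 ± 40.3 normalized counts in MDSC to 93.5 in MDSC-NP-Blk (-1.40, adjusted p = 1.9e-08) and 63.0 ± 18.1 in CITED (-1.97, SE 0.178, adjusted p = 1.7e-11).

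Among the transcription factors, Zbtb46 is expressed across conventional DCs and their committed precursors and lies at chr2:181012111-181104879. Its normalized counts were 82.6, 45.7, 62.6, and 87.6 in MDSC and 28.1, 46.9, 35.4, and 26.9 in MDSC-NP-Blk, with 53.9, 58.7, 58.8, and 53.2 in CITED. MDSC varied most and spanned the CITED range, and MDSC-NP-Blk was low apart from its replicate 2, which lay above the lowest MDSC library. Zbtb46 was lower in MDSC-NP-Blk than in MDSC (-0.99, SE 0.264, adjusted p = 0.0025), just short of the fold threshold, and without MDSC-NP-Blk replicates 1 and 4 the difference was -0.75 with an adjusted p of 0.058. CITED did not differ from MDSC beyond the spread (-0.31, interval -0.83 to 0.21, adjusted p = 0.35). All CITED libraries were above all MDSC-NP-Blk libraries (0.68, interval 0.13 to 1.23), yet the adjusted p was 0.069. It was 0.030 without MDSC-NP-Blk replicate 2 and 0.028 without replicates 2 and 3, where the difference was 1.03. The Zbtb46 gene overlaps others on the opposite strand, among them Zgpat and Lime1. Of the 31-base words of its canonical transcript, 0% occurred in transcripts of other genes, in either direction. Whether the libraries kept the strand is not given in the sources used here.

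Batf3, a factor that cDC1 require, lies at chr1:190830044-190841142. Its normalized counts were 60.6, 80.9, 60.8, and 74.5 in MDSC and 90.6, 69.0, 70.9, and 78.4 in MDSC-NP-Blk, with 87.8, 96.6, 54.4, and 65.8 in CITED. The groups overlapped, with both the highest and the lowest library in CITED. No comparison passed the test, with 0.13 in CITED against MDSC (interval -0.31 to 0.58, adjusted p = 0.66) and 0.15 in MDSC-NP-Blk against MDSC (interval -0.29 to 0.60, adjusted p = 0.62). The sign of both values turned with library totals alone (-0.14 and -0.11) and with a correction for length. Of the Batf3 transcript, 57.3% of the 31-base words are also found, in reverse, in the opposite-strand RNA Gm70128.

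Of the 7 listed partners of BATF3 in the AP-1 and IRF families, 6 were higher in CITED than in MDSC at an adjusted p under 0.05 and 0 were lower. Their median log2 fold change was 0.50, beside -0.05 for all genes. At this threshold 22.2% of all genes were higher and 22.2% lower, and these shares also apply to the counts of the other lists. Irf4 and Irf8 are also in the lists of cDC2 and cDC1, so the list counts overlap. Junb, an AP-1 subunit, rose from 3629 ± 262.8 to 13250 ± 819.3 normalized counts (1.87, SE 0.0534, adjusted p = 1.7e-24), and Jund rose by 1.01 (SE 0.0512, adjusted p = 6.1e-18). Irf8, another factor that cDC1 require, rose from 1235 ± 55.7 to 2091 ± 108.5 (0.76, SE 0.0604, adjusted p = 7.6e-13). With blank NPs 5 of the 7 were higher and 0 lower than in MDSC, beside 19.9% and 18.6% of all genes. Junb rose by 1.60 (adjusted p = 4.8e-22) and Irf8 by 0.52 (adjusted p = 7.4e-09).

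Tcf4, an E protein that pDCs need, lies at chr18:69476427-69822150 and has the longest transcript of the 8 genes, at 8970 bases. Its normalized counts were 496, 543, 583, and 470 in MDSC and 416, 408, 405, and 439 in MDSC-NP-Blk, with 355, 390, 366, and 375 in CITED. No 2 groups overlapped, and CITED was the lowest. Tcf4 was lower than in MDSC by 0.49 in CITED (log2 fold change -0.49, SE 0.0888, adjusted p = 1.6e-05) and by 0.33 in MDSC-NP-Blk (-0.33, SE 0.0876, adjusted p = 0.0026). With a correction for transcript length these values were -0.20 (adjusted p = 0.075) and -0.11 (adjusted p = 0.39), so that neither passed, and they were -0.77 and -0.59 with library totals alone. CITED against MDSC-NP-Blk gave -0.16 (interval -0.35 to 0.02, adjusted p = 0.22).

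The listed partners of TCF4 went in both directions. In CITED against MDSC 2 of 7 were lower and 3 higher, with a median of 0.14. Tcf12, another E protein, fell from 927.7 ± 58.2 to 600.3 ± 31.7 normalized counts (-0.63, SE 0.0917, adjusted p = 4.7e-07), and Cbfa2t3, a corepressor that binds E proteins, fell by 0.77 (SE 0.105, adjusted p = 1.4e-07). Id1 and Id2, inhibitors of E proteins, rose by 0.55 (SE 0.0665, adjusted p = 1.1e-08) and 0.15 (SE 0.0518, adjusted p = 0.016), and the repressor Zeb2 rose by 0.47 (SE 0.0574, adjusted p = 1.8e-08). With blank NPs, relative to MDSC, 1 of the 7 was lower and 1 higher. The values of these partners, unlike those of Tcf4, were not examined with a correction for length.

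Of the surface receptors, Xcr1, the chemokine receptor of cDC1 at chr9:123681380-123691094, was close to the limit of detection. The raw counts were 8, 9, 5, and 12 in MDSC and 3, 2, 4, and 0 in MDSC-NP-Blk, with 3, 1, 3, and 3 in CITED. In normalized counts every MDSC library, at 4.61 or more, was above every library with particles, at 4.17 or less. In total 34 counts in MDSC stood against 10 in CITED, a ratio of 2.74 (95% counting interval 1.33 to 6.22) after scaling, and against 9 in MDSC-NP-Blk, a ratio of 3.48 (1.63 to 8.24). The fit across genes did not pass the threshold in either case (adjusted p = 0.23 and 0.17). Counting intervals cover counting error only, and 26.9% of the words of the Xcr1 transcript recur in reverse in the opposite-strand RNA Gm57030.

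Siglech, the lectin receptor of pDCs at chr7:55417926-55429195, was detected in MDSC but in no CITED library. The raw counts were 8, 12, 4, and 4 in MDSC, 0, 0, 3, and 1 in MDSC-NP-Blk, and 0 in each CITED library. The groups MDSC and CITED did not overlap, and replicate 3 of MDSC-NP-Blk, at 3.13 normalized counts, lay just under the lowest MDSC library, at 3.68. With a floor of 3 counts over the CITED group, Siglech was at least 7.53-fold lower in CITED than in MDSC (adjusted p = 0.0066, 0.0031 to 0.021 over the alternatives that tested it). At this floor, the 0 among the 93463287 counts of CITED corresponds to a share of 3.21e-06%. The 28 counts of MDSC against 4 of MDSC-NP-Blk gave a ratio of 6.44 (counting interval 2.25 to 25.3), and the fit did not pass the threshold (adjusted p = 0.14). A stricter filter on low counts removed Xcr1 and Siglech, and a call from 28 counts rests on little depth. In bulk RNA, fewer cells of a type and less RNA per cell cannot be told apart.

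The 8 listed relatives of Siglech, with adaptor genes, mostly went the other way: 6 were higher and 2 lower in CITED than in MDSC, with a median of 0.73. Tyrobp, which encodes the adaptor DAP12 through which Siglec-H signals, rose from 8994 ± 483.2 to 21520 ± 1038 normalized counts (1.26, SE 0.0494, adjusted p = 7.5e-21), and Siglece rose by 1.24 (SE 0.0630, adjusted p = 6.7e-18). Siglec1, which marks macrophages, fell from 52.1 ± 9.91 to 22.2 ± 5.06 (-1.22, SE 0.352, adjusted p = 0.0044).

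**Figure D3:**
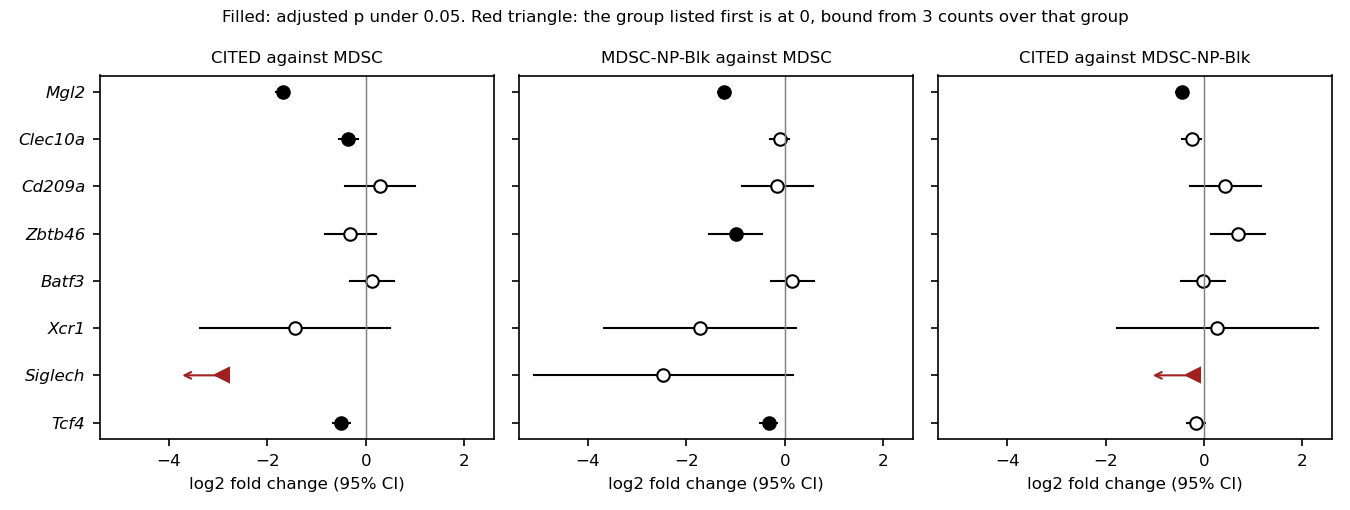
Log2 fold changes of the 8 genes with 95% confidence intervals in the 3 comparisons. Filled points passed an adjusted p of 0.05. Red triangles with arrows mark Siglech, which was at 0 in CITED, with 3 counts put in for that group and counting error left out. Mgl2 stands at -1.69, -1.24, and -0.45 from left to right.

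Counted together, the 8 genes went down or did not pass. In CITED against MDSC 2 were called lower (Mgl2 and Siglech) and 0 higher, where 6.7% of all genes were called lower and 3.28% higher. At an adjusted p under 0.05 alone, 4 were lower and 0 higher, beside 22.2% and 22.2% of all genes. The groups did not overlap, in either direction, for 5 of the 8 and for 42.5% of all genes, so this count is not read as particular to the 8. The median log2 fold change of the 8 was -0.42, also with 3 counts put in for Siglech in CITED, and that of all genes -0.05. In MDSC-NP-Blk against MDSC 1 was called lower (Mgl2) and 0 higher, where 2.86% and 1.88% of all genes were called. Here 3 were lower and 0 higher by the adjusted p, beside 18.6% and 19.9% of all genes, and the median was -0.66 against -0.03. Groups without overlap were found for 4 of the 8 and for 35.6% of all genes. The number called was 2 without MDSC-NP-Blk replicate 2, without its replicate 3, and without MDSC replicate 2 or 3, since Zbtb46 then reached the fold threshold. These comparisons share the MDSC libraries. In CITED against MDSC-NP-Blk 0 of 8 were called by edgeR, where 2% and 0.651% of all genes were called lower and higher, and 1 (Mgl2) was lower and 0 higher by the adjusted p, beside 11.4% and 10.5%. Here 3 of the 8 and 21.2% of all genes did not overlap. DESeq2 called 0 as well, and 3 of the 8 had an unadjusted p under 0.05 in edgeR.

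The other genes of conventional DCs moved in both directions. Of 12 genes shared by conventional DCs, 7 were lower and 4 higher in CITED than in MDSC, with a median of -0.29. Bcl11a, a factor of DC and lymphoid precursors, fell from 164.2 ± 20.4 to 47.9 ± 10.4 normalized counts (-1.78, SE 0.192, adjusted p = 9.4e-10), and Itgax, which encodes CD11c, fell by 0.22 (SE 0.0475, adjusted p = 0.00019). Jaml, an adhesion molecule, rose by 1.33 (SE 0.0754, adjusted p = 1.1e-16) and the protease gene Adam19 by 0.85 (SE 0.0835, adjusted p = 1.3e-10). For MDSC-NP-Blk against MDSC, 3 of the 12 were lower and 4 higher, and Itgax fell by 0.60 (adjusted p = 1.6e-12).

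In the lists of cDC1 and cDC2 more genes were higher than lower in CITED. For cDC1, 6 of 10 were higher and 2 lower, with a median of 0.38. Clec9a, a surface receptor of cDC1 for dead cells, was the 1 called higher: it rose from 48.4 ± 6.06 normalized counts in MDSC to 118.1 ± 20.9 in CITED (1.29, SE 0.218, adjusted p = 5.9e-06), whereas Xcr1 counts were lower in CITED without passing the test. With blank NPs Clec9a was at 64.9 ± 16.0 and did not pass (0.41, adjusted p = 0.15). Other genes of the list that rose were Irf8, Naaa (0.68, SE 0.0479, adjusted p = 3.3e-14), and Nfil3 (0.55, SE 0.0695, adjusted p = 2.9e-08), whereas Itgae, which encodes CD103 and was the 1 called lower, fell from 36.3 ± 8.39 to 16.4 ± 5.68 (-1.15, SE 0.456, adjusted p = 0.039). Wdfy4, the other lower gene of the cDC1 list, also fell (-0.39, SE 0.0686, adjusted p = 1.2e-05). For cDC2, 5 of 10 were higher and 1 lower, with a median of 0.30. The lower gene was Klf4 (-0.50, SE 0.177, adjusted p = 0.021), and Esam, Clec4a4, Tmem176a, and Tmem176b did not pass. Sirpa, which encodes the surface receptor SIRPα, rose from 13810 ± 614.4 to 22430 ± 188.9 (0.70, SE 0.0472, adjusted p = 1.2e-14), and Ltb rose by 1.4 (SE 0.0661, adjusted p = 7.8e-19). Naaa, Irf8, and Sirpa are also expressed by other myeloid cells.

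The pDC genes split. Of 15 listed, 14 were tested, and 5 were lower and 3 higher in CITED than in MDSC. The median was -0.69, the same to 2 decimals with 3 counts put in for Dntt, which was at 0 in CITED. Spib, a factor of pDCs and B cells, fell from 118.3 ± 33.0 to 55.1 ± 10.3 (-1.09, SE 0.226, adjusted p = 0.00012), Tlr9 fell by 0.69 (SE 0.230, adjusted p = 0.014), and Lair1 fell by 1.08 (SE 0.0709, adjusted p = 6.2e-15). Irf7, a factor induced by interferon, rose from 289.2 ± 11.7 to 750.0 ± 55.0 (1.38, SE 0.0858, adjusted p = 1.5e-15), and Bst2, which interferon also induces, rose by 1.11 (SE 0.0802, adjusted p = 6.4e-14). Tlr7 rose by 0.90 (SE 0.0742, adjusted p = 1.7e-12). In MDSC-NP-Blk against MDSC 3 of the 14 were lower and 2 higher, and Spib did not pass (-0.06, adjusted p = 0.86).

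Genes of mature DCs and of antigen presentation moved in both directions. Of 17 genes of mature DCs, 4 were lower and 7 higher in CITED than in MDSC, with a median of 0.09. Ccl17, a ligand of CCR4, fell from 3179 ± 127.5 normalized counts to 912.6 ± 148.2 (-1.80, SE 0.0776, adjusted p = 7.6e-20) and to 926.3 in MDSC-NP-Blk (-1.78, adjusted p = 3.8e-19), and Ccl22, the other ligand of CCR4, fell by 0.83 in CITED (SE 0.0563, adjusted p = 1.3e-14). Ccl5 rose by 3.01 (SE 0.141, adjusted p = 7.5e-19), Relb by 1.23 (SE 0.0738, adjusted p = 4.9e-16), and the costimulatory gene Cd80 by 0.98 (SE 0.0782, adjusted p = 8.8e-13). Of 10 genes of MHC class II presentation 7 were higher and 1 lower, with a median of 0.25, which is smaller than the shift between scalings. The gene that fell was Ciita, the transactivator of this pathway (-1.05, SE 0.126, adjusted p = 1.1e-08), whereas H2-DMa (1.03, SE 0.0590, adjusted p = 1.6e-16) and H2-Aa (0.36, SE 0.0533, adjusted p = 7.3e-07) rose, as did H2-Eb1 (0.27, adjusted p = 3.4e-05).

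**Figure D4:**
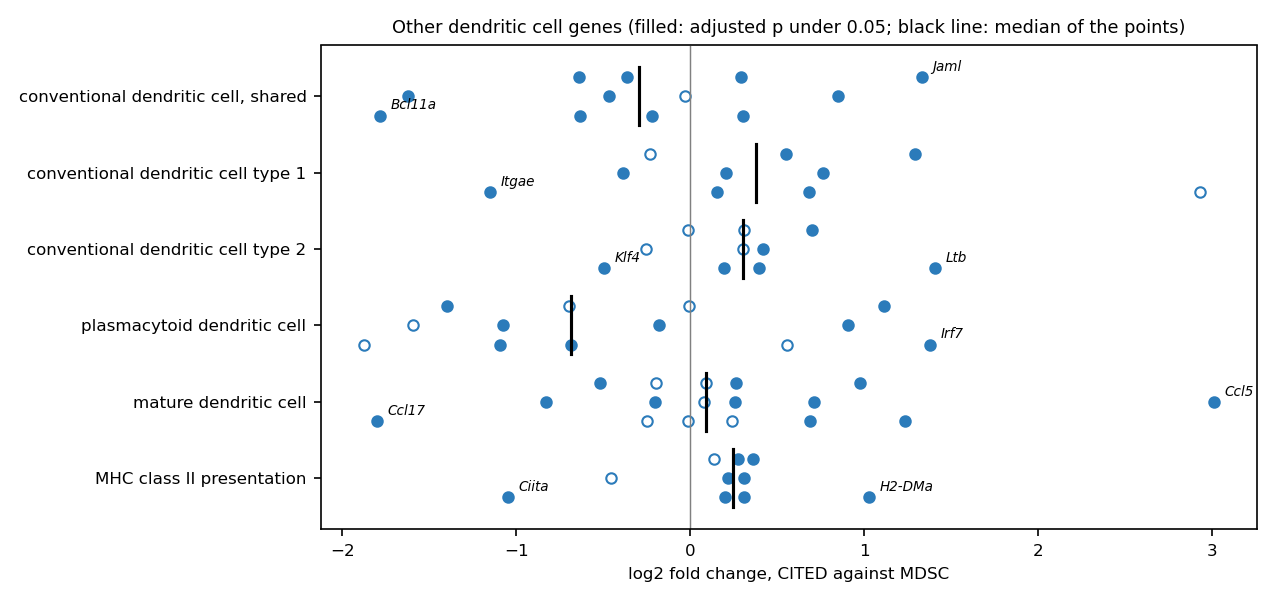
Log2 fold changes of the other DC genes in CITED against MDSC, by list, with 1 point per gene and a line at the median of the points. Filled points passed an adjusted p of 0.05. A gene at 0 in either group is not drawn. Within the lists the values run in both directions, from Ccl17 at -1.80 to Ccl5 at 3.01 among genes of mature DCs.

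Markers of other cell types also differed between the groups, and their part in the results above was not tested. Of 8 B cell markers 7 were in the table, and in CITED against MDSC 5 were lower and 0 higher. Their summed level was 12.7 to 15.3 CPM in MDSC and 7.59 to 10.6 in MDSC-NP-Blk, with 3.15 to 4.66 in CITED. The means of Mgl2, Clec10a, Siglech, and Tcf4 had the same order. Of these, CITED against MDSC-NP-Blk passed only for Mgl2 (adjusted p = 9.2e-07, 0.057, 0.21, and 0.22). Cd79b (-1.97, SE 0.230, adjusted p = 6.2e-09), Cd79a (-1.44, SE 0.274, adjusted p = 3.6e-05), and Pax5 (-3.21, SE 0.408, adjusted p = 3.4e-08) fell, and Igll1 was at 0 in MDSC and CITED. All 6 markers of mast cells and basophils were lower in CITED than in MDSC, and their summed level was 525 to 567 CPM in MDSC and 626 to 725 in MDSC-NP-Blk, but 336 to 358 in CITED. Prss34, Mcpt8, and Hdc were the most abundant of them, and Prss34 fell by 0.81 in CITED (SE 0.0497, adjusted p = 8.4e-16). Of 10 markers of monocytes and macrophages 5 were lower and 4 higher, and their sum was 2247 to 2413 CPM in MDSC and 3080 to 3286 in MDSC-NP-Blk, with 2910 to 3072 in CITED. Their most abundant genes were Ly6c2, Csf1r, and Cd68, of which Ly6c2 fell by 0.35 in CITED while Csf1r rose by 1.00 and Cd68 by 1.06. Of 11 neutrophil markers 4 were lower and 5 higher, with sums of 29490 to 33260, 39200 to 41550, and 31920 to 35870 CPM, and S100a9, S100a8, and Ltf led them. These sums are carried by the S100 genes and hide large falls within the list. Mpo, a granule enzyme of immature neutrophils, fell from 27170 ± 1410 normalized counts in MDSC to 8722 ± 1273 in MDSC-NP-Blk (-1.64, adjusted p = 8.6e-20) and 1279 ± 67.4 in CITED (-4.41, SE 0.0759, adjusted p = 5.2e-31). Elane, which encodes neutrophil elastase, fell from 15080 ± 975 to 10900 ± 195.9 (-0.47, adjusted p = 1.8e-09) and 1561 ± 102.2 (-3.27, SE 0.0562, adjusted p = 5.2e-31). Both were highest in MDSC and lowest in CITED, as was Mgl2.

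Among T cell, NK cell, and erythroid markers few passed. In CITED against MDSC, of 8 T cell markers 1 passed, Il7r, which rose by 0.70 (SE 0.0633, adjusted p = 1.8e-11), and the T cell receptor component Cd3e had a mean of 4.06 normalized counts in MDSC and 2.33 in CITED. Of 4 NK cell markers tested 1 passed, Nkg7, which fell from 501.2 ± 49.4 to 103.2 ± 12.8 (-2.28, SE 0.112, adjusted p = 2.7e-18), and Ncr1 was at 0 in all libraries. The summed level of the T cell markers was 42.7 to 46.5 CPM in MDSC and 69.0 to 73.2 CPM in CITED, and that of the NK cell markers 19.0 to 23.3 CPM and 3.74 to 5.34 CPM. Each of these sums is carried by 1 gene. Il7r alone had a mean of 42.0 CPM in MDSC and 68.1 CPM in CITED, and Nkg7 had 20.3 and 4.19 CPM. In CITED against MDSC 0 of 6 erythroid markers passed in edgeR and 1 had an unadjusted p under 0.05. In MDSC-NP-Blk 1 was lower than in MDSC, Hbb-bs, which fell from 32.0 ± 6.08 to 13.2 ± 5.05 normalized counts (-1.26, SE 0.407, adjusted p = 0.013). The erythroid sum lay between 2.79 and 4.97 CPM in all 12 libraries.

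**Figure D5:**
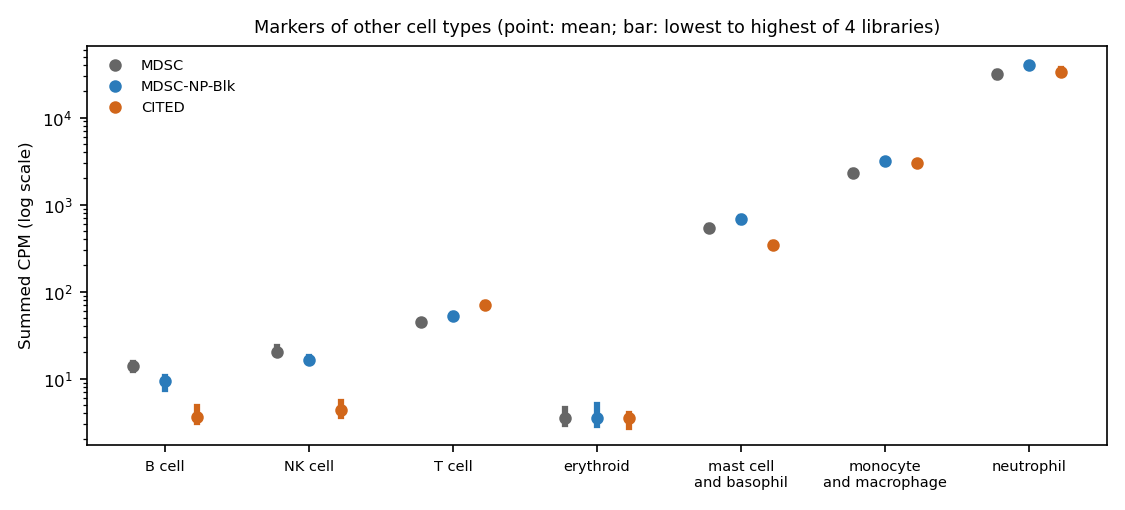
Summed CPM of the markers of other cell types on a log scale, by group, with the mean as a point and the lowest to highest of 4 libraries as a bar. B cell markers were at 12.7 to 15.3 CPM in MDSC and 3.15 to 4.66 CPM in CITED. The T cell sum is carried by Il7r, the NK cell sum by Nkg7, and the neutrophil sum by the S100 genes.

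The genes whose log2 CPM followed each of the better expressed members most closely over the 12 libraries were found among 10551 genes with a mean normalized count of at least 50. All 12 libraries carry the differences between the groups and share depth and length trends, so the correlations are descriptions. Mgl2 was followed by Hsp90aa1 (Pearson r = 0.996), a cytosolic chaperone with mean normalized counts of 11700 in MDSC and 8290 in MDSC-NP-Blk, with 7470 in CITED, and by Shmt2 (r = 0.995), a mitochondrial enzyme of serine metabolism with 1010, 426, and 313. Tcf4 was closest to Usp46 (r = 0.952) and Oxr1 (r = 0.950), and Clec10a to Selenof (r = 0.931) and Rnps1 (r = 0.931). Zbtb46 was closest to Celf1 (r = 0.933) and Gart (r = 0.931), both of which were lowest in MDSC-NP-Blk. Batf3 had weaker neighbours, Mrpl33 (r = 0.845) and Gm2546 (r = 0.839). Shmt2 was highest in MDSC and lowest in CITED, as was Mgl2, but orders shared in this way follow from the choice by correlation.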

How the data were processed

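Poly(A) RNA from 12 libraries was analyzed, 4 per group, with groups and replicate numbers taken from the sample titles. The values deposited by the authors are counts, whole numbers for each symbol, quantified from paired-end reads and not normalized or filtered. The submitters' processing notes name Salmon 1.4.0, R 4.3.2, and the build GRCm39. Salmon divides reads that match several transcripts by a model. The 1 entry with a blank symbol held no counts and was left out. The 8 genes and the 19 marker lists (165 genes) were chosen with earlier results of these data known.

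All 17676 genes that reached 2 counts in sum were fitted together in edgeR 4.0.16 (R 4.3.3) with TMM factors, glmQLFit, and glmQLFTest, with the group as the only term and robust estimation off, and p-values were adjusted by Benjamini and Hochberg. The biological coefficient of variation was 9.03%. The SE was taken from the log2 fold change and the F statistic. Length per kilobase was that of the canonical transcript of GENCODE M39, found for 99.8% of the genes tested, and the annotation release of the authors is not given in the sources used here. Named genes were the 8 members, the up to 3 genes with the lowest p in each direction from each list of DC genes or partners, the up to 3 most abundant of each other cell type, and the 2 closest correlates of members with a mean normalized count of at least 50. Of the genes that meet this rule the text names a part. Clec9a, Mpo, Elane, Hbb-bs, Cd3e, Ncr1, Igll1, Dntt, and genes at 0 were named after their values were seen. Replicate libraries all differed beyond sampling noise, and libraries with the same number did not deviate together, so the numbers were not used as a block. Alternatives were DESeq2 1.42.0, other factors and filters, the 8 libraries of a comparison, a replicate block, a loess correction for length (span 0.5), and fits without each library. The fits without pairs of MDSC-NP-Blk libraries, with library totals alone, and with Mgl2 and Clec10a added were chosen after seeing the data. The steps were also run on simulated counts with the same spread for all genes, no trend with length, and no pairs of libraries. Changes were placed only in genes with a mean of at least 50 counts. Changes at low counts, as in Xcr1 and Siglech, were thus not tested. Figures were drawn with matplotlib 3.10.9 in Python 3.11.15.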

Additional observations from a re-analysis of the deposited data

How the results depend on the processing

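Over the 24 differences (8 genes in 3 comparisons), 560 values were recomputed, with the sum of Mgl2 and Clec10a entered for both genes. Of these, 527 kept their direction and side of the threshold, 5 lost it, 14 passed it newly, 14 values that had not passed changed sign, and 0 that had passed were reversed. The 5 that lost it were Tcf4 with a length correction, with and without a replicate block, in both comparisons with MDSC, and Zbtb46 in MDSC-NP-Blk against MDSC without MDSC-NP-Blk replicates 1 and 4. The cause was not tested.

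In CITED against MDSC the members called numbered 1 with filterByExpr, which left fewer genes tested, and 4 with no fold change threshold, and 2 without any 1 library. In MDSC-NP-Blk against MDSC they numbered 2 with DESeq2, with RLE factors, with no library factors, with the 8 libraries of the comparison, and without MDSC-NP-Blk replicates 2 and 3, 3 with no fold change threshold, and 1 to 2 when 1 library was left out. In CITED against MDSC-NP-Blk they numbered 1 without MDSC-NP-Blk replicates 2 and 3 and with no fold change threshold, and 0 without any 1 library. Of all genes 1765, 838, and 469 were called in the 3 comparisons, 1631 to 1772, 722 to 892, and 417 to 474 without 1 library, and 7862, 6815, and 3883 with no fold change threshold.

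Correlations of deviations between libraries of the same number were -0.06 to 0.14, and over 0.1 in 0, 0, and 1 of 4 pairs, so the numbers are not shown to pair the samples. With a replicate block 2, 1, and 0 members and 1621, 766, and 441 genes were called, and Clec10a passed in CITED against MDSC-NP-Blk (adjusted p = 0.031). Depth limits Xcr1 and Siglech most, since each library held 12 or fewer counts of either.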

Other observations

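The receptors through which GM-CSF and other factors act on myeloid precursors, and the STAT factors below them, were more often higher with particles. Of 10 such genes 9 were higher and 1 lower in CITED than in MDSC, with a median log2 fold change of 0.58 beside -0.05 for all genes. Csf2rb, the shared beta chain of the GM-CSF receptor, rose from 41690 ± 646.6 to 82860 ± 3552 normalized counts (0.99, SE 0.0437, adjusted p = 1.5e-19). Csf3r, the receptor of G-CSF, rose by 1.54 (SE 0.0550, adjusted p = 6.4e-22), and Csf1r by 1.00 (SE 0.0439, adjusted p = 1.5e-19). Stat5a, which GM-CSF activates, fell by 0.19 (SE 0.0698, adjusted p = 0.023), while Stat5b rose by 0.18 (SE 0.0528, adjusted p = 0.0055). Both values are smaller in size than the shift between scalings. In MDSC-NP-Blk against MDSC 9 of the 10 were also higher and 1 lower, in a comparison that shares the MDSC libraries.

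A screen for libraries far from the other 3 of their group, over the 23 sets of 4 normalized counts with any spread, found 0.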
